A study of Drosophila melanogaster with 6 samples.

Results

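The 41 genes described here encode the machinery of mitosis: the mitotic cyclins and their kinase, the spindle checkpoint, the kinetochore, the spindle motors, the centrosome, the augmin complex and the proteins of cytokinesis. They were listed by name for their known function, by a rule that uses no measured value but with earlier results of these data known, and all 41 were found by FlyBase identifier among the 17753 genes of the expression tables. Levels came from RNA sequencing of Drosophila melanogaster eye discs and antennal discs, the joined epithelial sacs of the third instar larva that form the adult eye, antenna and head capsule. Each disc type was represented by 3 libraries of polyadenylated RNA, every library from a pool of 30 discs that had been parted by hand. All larvae were of the yw;+;+ genotype, and the labels name no treatment. A library therefore averages every cell of its discs, dividing or not.

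Entry into mitosis is driven by Cdk1 bound to a cyclin. Chromosomes attach to spindle microtubules through kinetochores, and the spindle checkpoint holds the anaphase-promoting complex, a ubiquitin ligase, until all are attached. The ligase with its activator Fzy then releases separase, which splits the sister chromatids, and the central spindle directs cytokinesis. In the third instar eye disc a front of differentiation, the morphogenetic furrow, crosses the epithelium. Cells ahead of it divide without pattern, cells in it arrest in G1, a last synchronous round of division follows behind it, and the photoreceptor neurons left behind do not divide again. The antennal disc has no such front and its cells go on dividing.

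The estimated counts summed to between 17583601 and 29093991 per library, the lowest in eye disc replicate 2. At these depths 3 counts corresponded to 0.1 to 0.192 CPM (estimated counts scaled to a common library total, after TMM composition scaling), a floor that covers counting error only, and the lowest value among the 41 genes was 62 counts. The disc labels held against markers: the summed level of 5 eye disc genes (eya, so, ey, gl and ato) was 1080 to 1190 CPM in eye disc libraries and 138 to 167 CPM in antennal disc libraries, while 4 antennal genes (Dll, ss, disco and danr) summed to 159 to 167 and 447 to 554 CPM, although danr alone was higher in eye disc. Of 8 neuron markers, 7 were higher in eye disc, with sums of 891 to 1460 CPM against 101 to 120 CPM. The sums were 363 to 618 against 173 to 205 CPM for 4 glial markers, 639 to 666 against 399 to 501 CPM for 5 hemocyte markers, 211 to 347 against 446 to 485 CPM for 6 muscle markers and 19.1 to 45.8 against at most 18.5 CPM for 2 tracheal markers. Called toward eye disc were 3 of the glial, 3 of the hemocyte and 0 of the tracheal markers. Of the muscle markers 3 (twi, Mhc and how) were called toward antennal disc, Mef2 and Act57B were not called, and htl lay toward eye disc without a call. Of 4 fat body markers none was called, but eye disc replicate 2 held 21500 CPM of them, against 4750 and 7290 CPM in the other eye disc libraries and 2950 to 4590 CPM in the antennal disc libraries. The 4 germ line markers summed to 4.17 CPM at most, with nos at 0 in all 6 libraries. The part of these cell types in the results below was not tested.

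The comparison asked whether the mitosis genes differ in level between the discs. A modest shift toward the antennal disc was found: 14 of the 41 genes stood higher in the antennal disc and none in the eye disc, while 27 did not pass the test. Calls are those of edgeR's quasi-likelihood F test at a Benjamini-Hochberg p under 0.05, adjusted over 9901 genes, and every adjusted p below is of this kind unless another fit is named. Across all tested genes 26.4% were called, 11.7% as higher in antennal disc and 14.6% as higher in eye disc, against 34.1% of the mitosis genes as higher in antennal disc. The median log2 fold change, taken throughout as eye disc over antennal disc, was -0.21 for the 41 genes and 0.005 for all tested genes. It was below 0 for 36 of the 41 genes, or 87.8%, and for 49.5% of all genes. Single values lay between -0.52 and 0.28, so that every difference was well under 1 on the log2 scale. At an unadjusted p under 0.05, 21 members lay toward antennal disc and 1, tum, toward eye disc. The share of all genes at that threshold is not given, here or below, so such counts have no background. Because discs were sequenced in bulk, fewer dividing cells and less of these RNAs per cell cannot be told apart.

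**Figure D1:**
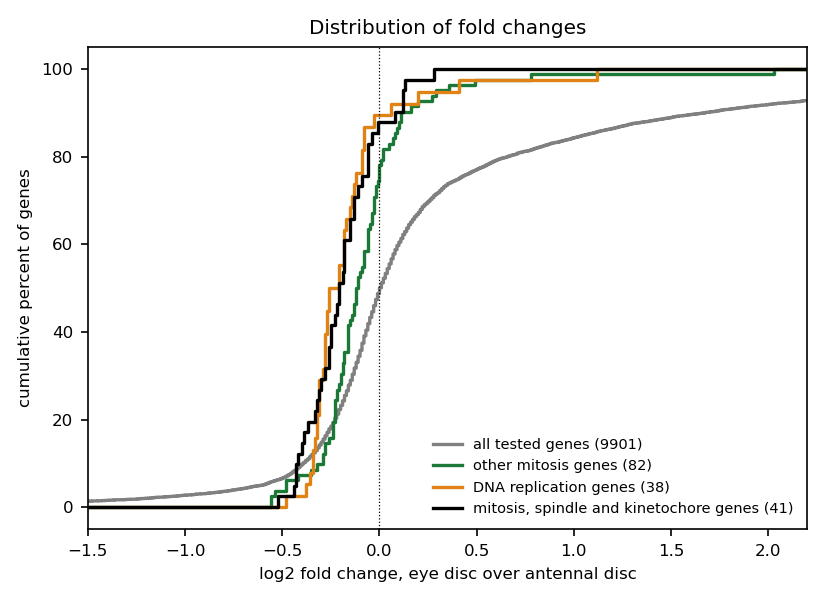
Cumulative share of genes (y axis, percent) by log2 fold change, eye disc over antennal disc (x axis), for all 9901 tested genes, the 41 mitosis, spindle and kinetochore genes, 82 other mitosis genes and 38 DNA replication genes. The black line of the 41 genes lies left of the grey line of all genes around its middle, at a median of -0.21, and spans a narrower range.

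The library ranges of the discs were apart for 25 of the 41 genes, 23 with all antennal disc libraries above all eye disc libraries and 2 (tum and msd5) the other way. Among all tested genes the ranges were apart with antennal disc above for 22.2% and with eye disc above for 23.4%. Summed over the 41 genes, the level was 3658, 3508 and 3786 CPM in eye disc replicates 1, 2 and 3, and 3952, 4218 and 4334 CPM in antennal disc replicates 1, 2 and 3. Thus every antennal disc library exceeded every eye disc library, and the lowest sum belonged to the library with the most fat body RNA. Without eye disc replicate 2, 10 members were higher in antennal disc and none in eye disc, where 9.65% of 10113 genes were higher in antennal disc. Antennal disc replicate 1 was the lowest library of its disc for 34 of the 41 genes, and without antennal disc replicate 2 or without replicate 3 the count of 14 fell to 6, where 5.88% and 5.13% of all genes were higher in antennal disc. The direction of the median was kept under every scaling tried, but the count rests on scaling. It was 8 with library totals alone, where CycB, Cdk1, polo, mad2, Klp61F and Sas-4 were lost (adjusted p = 0.0585 to 0.155) and 7.78% of all genes were called in that direction. It was 0 (8 at an unadjusted p under 0.05) with limma-trend on log2(TPM + 1), a fit in which 3.47% of all genes were called in that direction and the median of all genes lay at -0.18. With libraries shifted to a common median of that scale, which was chosen after seeing this, it was 21, where 16.8% of all genes were called.

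**Figure D2:**
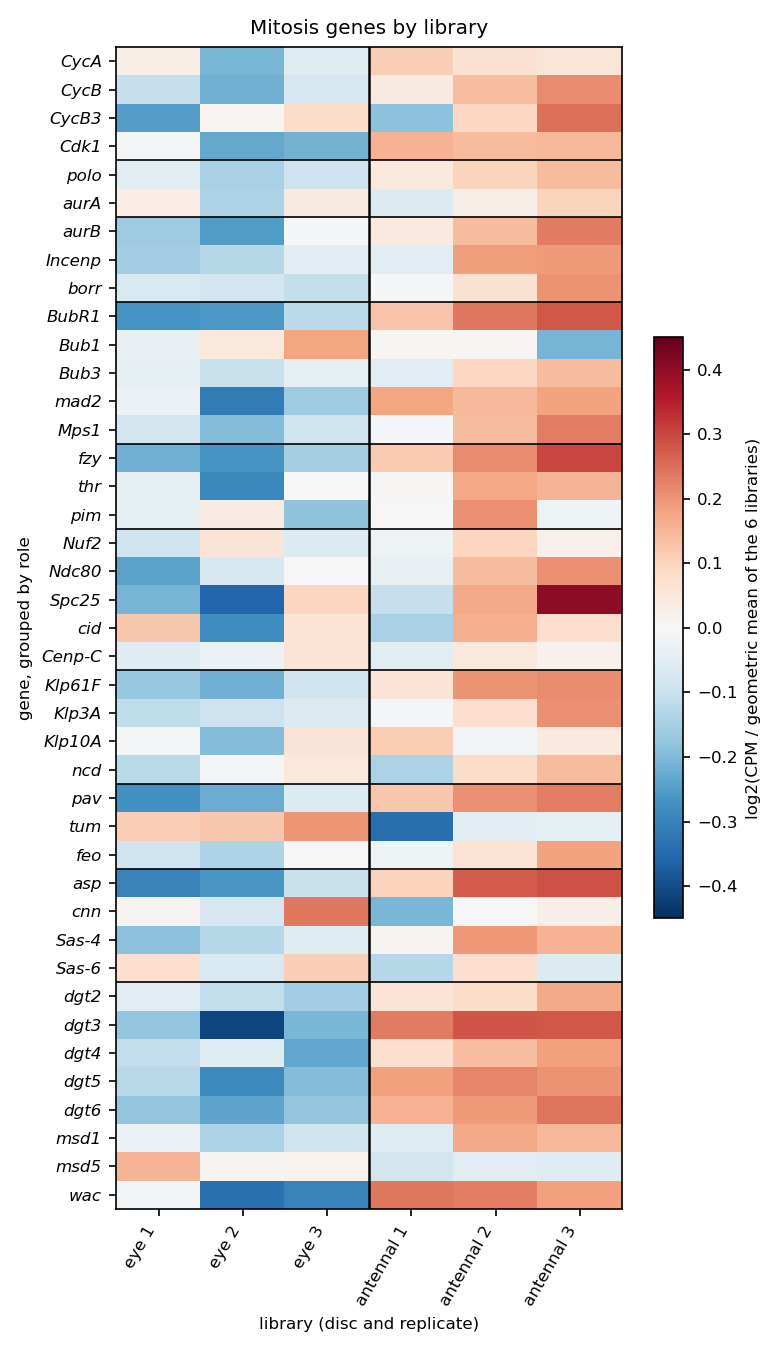
Each row is a gene, grouped by role in the order of the text (cyclins and Cdk1 at the top, augmin at the bottom), each column a library, and the colour gives log2 of its CPM over the gene's geometric mean of the 6 libraries. Most rows are blue in the 3 eye disc columns and red in the antennal disc columns, antennal disc replicate 1 is paler than replicates 2 and 3, and tum and msd5 show the opposite order.

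The samples of equal replicate number deviated together from their disc means, which with 3 libraries per disc cannot establish a pairing. The fit with the number as a block was therefore read only as an alternative. With it, 16 members were higher in antennal disc and 1, tum, in eye disc, where 14.1% and 16.3% of all genes were called in these directions. The genes it added were aurB and Incenp on the antennal side and tum on the eye side, and no call was lost.

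Of the mitotic cyclins and their kinase, CycB and Cdk1 were higher in antennal disc, while CycA and CycB3 were not called. CycB (FBgn0000405, 2R, 22803521 to 22806948 in dm6), the B-type cyclin that is destroyed at anaphase, was at 254, 235 and 259 CPM in eye disc replicates 1, 2 and 3 and at 281, 301 and 316 CPM in antennal disc replicates 1, 2 and 3. All 3 antennal disc libraries lay above all eye disc libraries, at a log2 fold change of -0.26 ± 0.07 (SE, adjusted p = 0.0313). Cdk1 (2L, 10384739 to 10386262), the kinase that all 3 cyclins bind, was at 118, 101 and 102 CPM in eye disc and at 132, 130 and 131 CPM in antennal disc. Its antennal disc libraries were nearly equal and again above those of the eye disc (-0.30 ± 0.07, adjusted p = 0.0251). CycA, the cyclin that is required for mitosis in the fly and is degraded first, was at 281, 239 and 265 CPM in eye disc and 297, 289 and 286 CPM in antennal disc, ranges that were barely apart (-0.15 ± 0.07, adjusted p = 0.164). For CycB3, the cyclin degraded last, the ranges overlapped: 85.8, 102 and 108 CPM in eye disc against 89.7, 109 and 121 CPM in antennal disc. Replicate 1 was the lowest in both discs, and the log2 fold change was -0.11 ± 0.13 (adjusted p = 0.587). The ratio of CycB to Cdk1 counts was 2.16 to 2.55 in eye disc and 2.13 to 2.42 in antennal disc, which overlap, while that of CycA to Cdk1 was 2.38 to 2.60 and 2.18 to 2.26, which do not. Both ratios are given without a test. The CycB call was lost without eye disc replicate 1 or 2 or antennal disc replicate 2 or 3 (adjusted p = 0.0592 to 0.109), and that of Cdk1 without any library other than eye disc replicate 1 (0.0545 to 0.0862).

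Among the mitotic kinases, polo was higher in antennal disc. polo (FBgn0003124, 3L, 20309654 to 20313466), the founding Polo-like kinase of spindle poles, kinetochores and cytokinesis, was at 336, 316 and 327 CPM in eye disc and at 361, 374 and 385 CPM in antennal disc. It had the highest counts of the list, and its ranges were apart (-0.19 ± 0.05, adjusted p = 0.0394). The Aurora A kinase gene aurA, which acts at centrosomes, was at 31.6 to 35.8 against 33.4 to 37.3 CPM, overlapping ranges (-0.04 ± 0.08, adjusted p = 0.725). The polo call was lost without a filter on low counts (adjusted p = 0.0508) and without eye disc replicate 2 or 3 or antennal disc replicate 2 or 3 (adjusted p = 0.0712 to 0.136).

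The chromosomal passenger complex corrects faulty attachments and later guides cytokinesis. None of its 3 tested genes was called by edgeR, although all 3 had an unadjusted p under 0.05 and DESeq2 called 2. The kinase gene aurB was at 59.3, 55.6 and 66.1 CPM in eye disc and at 68.3, 73.1 and 77.9 CPM in antennal disc (-0.28 ± 0.09, adjusted p = 0.0579, and 0.0309 with the replicate block). Its scaffold Incenp was at 187, 190 and 201 CPM in eye disc and at 201, 237 and 238 CPM in antennal disc (-0.23 ± 0.08, adjusted p = 0.0804, and 0.0397 with the replicate block). borr, which encodes the borealin subunit, was at 92.0 to 94.5 against 98.9 to 114 CPM (-0.18 ± 0.06, adjusted p = 0.087). The 3 genes had their antennal disc libraries above their eye disc libraries, by amounts that did not pass the test over all genes. aurB was called without eye disc replicate 3 (-0.36, adjusted p = 0.0296) and Incenp without antennal disc replicate 1 (-0.31, 0.0213).

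Of the 5 spindle checkpoint genes, BubR1 and mad2 were higher in antennal disc. BubR1 (FBgn0263855, 2R, 5969099 to 5974385), which with Mad2 binds and inhibits Fzy, was at 89.1, 89.8 and 99.0 CPM in eye disc and at 117, 127 and 131 CPM in antennal disc. That is a clear separation relative to the spread, and it was called in all 6 fits that left out 1 library (-0.43 ± 0.07, adjusted p = 0.00529). mad2 was at 38.9, 31.9 and 35.5 CPM in eye disc and at 44.8, 43.9 and 45.0 CPM in antennal disc (-0.33 ± 0.08, adjusted p = 0.0295). The kinase gene Mps1, which starts checkpoint signalling, was at 22.4 to 24.2 against 25.5 to 30.1 CPM (-0.25 ± 0.08, adjusted p = 0.074, and 0.0441 at -0.32 without antennal disc replicate 1). Bub3, the adaptor of BubR1 and Bub1, was at 184 to 192 against 190 to 218 CPM (-0.13 ± 0.06, adjusted p = 0.195). Bub1, the kinase that recruits BubR1 to kinetochores, lay the other way, at 46.5, 49.1 and 53.9 CPM in eye disc against 47.9, 47.7 and 41.2 CPM in antennal disc. Its ranges overlapped (0.13 ± 0.09, adjusted p = 0.332), and the sign turned with limma-trend on log2(TPM + 1), where the median of all genes was -0.18. The mad2 call was lost without eye disc replicate 3 or any 1 antennal disc library (adjusted p = 0.0618 to 0.0999).

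At anaphase onset, fzy was higher in antennal disc. fzy (FBgn0001086, 2L, 16310956 to 16313097), the Cdc20-type activator of the anaphase-promoting complex, was at 93.6, 90.5 and 98.0 CPM in eye disc and at 118, 126 and 134 CPM in antennal disc. The gap between the discs exceeded the range within either, and the call held in all 6 fits that left out 1 library (-0.42 ± 0.06, adjusted p = 0.00487). thr, which encodes a separase subunit, was at 30.9 to 37.7 against 37.9 to 42.6 CPM (-0.22 ± 0.10, adjusted p = 0.144). Its inhibitor pim, the securin that Fzy marks for destruction, was at 19.9 to 23.2 against 22.3 to 26.0 CPM (-0.13 ± 0.10, adjusted p = 0.372).

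None of the 5 kinetochore and centromere genes was called, and none reached an unadjusted p under 0.05 or a DESeq2 call. Nuf2 and Ndc80, partners in the complex that grips microtubules, were at 23.3 to 25.8 against 24.4 to 26.5 CPM (-0.06 ± 0.07, adjusted p = 0.561) and at 26.2 to 30.9 against 30.2 to 35.7 CPM (-0.21 ± 0.10, 0.154). Spc25, a further subunit, was at 16.0, 14.4 and 19.8 against 17.2, 20.8 and 24.5 CPM, with the second largest SE after cid (-0.31 ± 0.17, adjusted p = 0.218). cid, the centromeric histone H3 variant that marks the site of the kinetochore, was the lowest of the list at 3.96 to 5.22 against 4.34 to 5.38 CPM (-0.06 ± 0.23, adjusted p = 0.878). Cenp-C, which links that chromatin to the outer kinetochore, was at 73.0, 74.5 and 79.2 CPM in eye disc and 73.2, 78.3 and 76.8 CPM in antennal disc. Cenp-C thus had the smallest difference of the 41 genes (-0.01 ± 0.06, adjusted p = 0.917). The signs of cid and Cenp-C turned in some fits that left out 1 library.

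Of the 4 spindle motors, Klp61F was higher in antennal disc. Klp61F (3L, 1241568 to 1245910), the bipolar kinesin-5 that pushes spindle poles apart, was at 151, 146 and 160 CPM in eye disc and at 178, 196 and 197 CPM in antennal disc, without overlap (-0.32 ± 0.06, adjusted p = 0.0137). The chromokinesin Klp3A, which acts at the central spindle, was at 124 to 129 against 134 to 155 CPM (-0.18 ± 0.07, adjusted p = 0.085, and 0.0487 at -0.24 without antennal disc replicate 1). The microtubule-depolymerising kinesin-13 Klp10A (173 to 206 against 196 to 214 CPM, -0.09 ± 0.08) and the minus-end motor ncd (107 to 121 against 106 to 129 CPM, -0.06 ± 0.09) had overlapping ranges and adjusted p of 0.422 and 0.674. The Klp61F call was lost without antennal disc replicate 2 (adjusted p = 0.0603) or replicate 3 (0.0591).

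**Figure D3:**
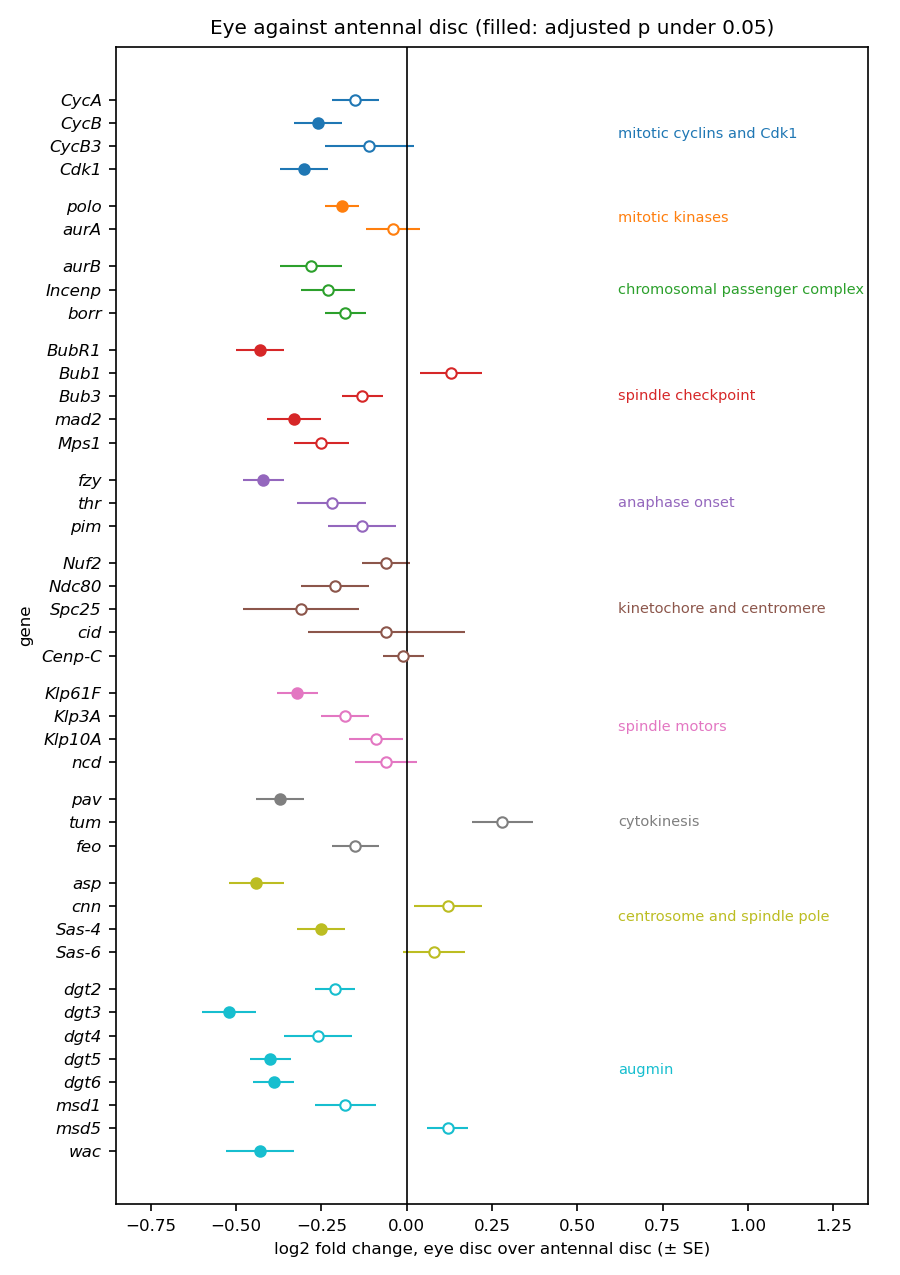
Log2 fold change of each gene, eye disc over antennal disc (x axis, points with approximate SE from 3 against 3 libraries), with genes in rows coloured by role; filled points had an adjusted p under 0.05. The 14 filled points all lie left of 0, between -0.52 and -0.19, and the 5 points right of 0 (Bub1, tum, cnn, Sas-6 and msd5) are open. All of these but tum turned sign with limma-trend on log2(TPM + 1). In that fit the median of all genes was itself -0.18, and the genes that turned stayed above it.

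Of the 3 cytokinesis genes, pav was higher in antennal disc, and tum and feo were not called. pav and tum encode the kinesin and the Rac GTPase-activating subunit of centralspindlin, a complex that bundles the central spindle and places the contractile ring. pav (FBgn0011692, 3L, 4242734 to 4246233) was at 122, 126 and 141 CPM in eye disc and at 160, 170 and 173 CPM in antennal disc (-0.37 ± 0.07, adjusted p = 0.0114). tum (2R, 13856150 to 13858689) was not called and lay on the other side of 0, at 146, 147 and 156 CPM in eye disc and at 107, 131 and 131 CPM in antennal disc, with antennal disc replicate 1 the lowest (0.28 ± 0.09, adjusted p = 0.0632, and 0.0342 with the replicate block). The ratio of tum to pav counts was 1.2, 1.17 and 1.1 in the eye disc libraries and 0.669, 0.771 and 0.760 in the antennal disc libraries, a ratio 1.58 times as high in eye disc. This pair was picked after its values were seen, so the ratio is given without a test. Neither span overlaps another gene. feo, the PRC1-type microtubule bundler of the central spindle, was at 161 to 178 against 175 to 201 CPM (-0.15 ± 0.07, adjusted p = 0.161). The pav call was lost without antennal disc replicate 2 (adjusted p = 0.0527) or replicate 3 (0.0512).

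Of 4 centrosome and spindle pole genes, asp and Sas-4 were higher in antennal disc. asp (FBgn0000140, 3R, 24753849 to 24760513), the microtubule-focusing protein of spindle poles whose human counterpart is ASPM, was at 86.8, 89.0 and 99.6 CPM in eye disc and at 115, 129 and 130 CPM in antennal disc. This separation was kept whichever library was left out (-0.44 ± 0.08, adjusted p = 0.00882). Sas-4, needed for centriole assembly, was at 40.9, 42.5 and 44.8 against 46.9, 53.2 and 51.8 CPM and passed the threshold barely (-0.25 ± 0.07, adjusted p = 0.0498, but 0.0518 with RLE scaling, 0.0514 without a filter on low counts and 0.0593 with a minimum of 1 CPM). Its call was lost without any library other than antennal disc replicate 1 (0.0581 to 0.153). The centriole cartwheel gene Sas-6 (16.5 to 18.7 against 15.8 to 18.3 CPM) and cnn, the scaffold of the pericentriolar material (91.4 to 114 against 83.7 to 98.1 CPM), had overlapping ranges. Their log2 fold changes were 0.08 ± 0.09 and 0.12 ± 0.10 (adjusted p = 0.574 and 0.429). Both turned sign with limma-trend on log2(TPM + 1), where the median of all genes was -0.18.

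Augmin, a complex of 8 subunits through which new microtubules are nucleated from the sides of existing ones, held the largest single difference. Its genes dgt3, dgt5, dgt6 and wac were higher in antennal disc, and dgt2, dgt4, msd1 and msd5 were not called. dgt3 (FBgn0034569, 2R, 20992276 to 20994381) was at 29.4, 24.9 and 28.7 CPM in eye disc and at 39.0, 40.3 and 40.2 CPM in antennal disc, the largest shift of the 41 genes (-0.52 ± 0.08, adjusted p = 0.00455). dgt5 was at 50.2, 45.0 and 47.8 against 62.3, 63.8 and 63.0 CPM (-0.40 ± 0.06, adjusted p = 0.00459). The subunit gene dgt6 followed at 33.2, 31.9 and 33.3 against 42.0, 43.0 and 44.5 CPM (-0.39 ± 0.06, adjusted p = 0.00381). In all 3 the antennal disc libraries lay within a narrow band well above the eye disc, and all 3 calls held in each of the 6 fits that left out 1 library. wac was at 42.5, 33.9 and 34.8 against 50.5, 50.3 and 48.7 CPM (-0.43 ± 0.10, adjusted p = 0.0205), and its call was lost without eye disc replicate 3 or any 1 antennal disc library (0.0525 to 0.0704).

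The remaining augmin subunits differed less. dgt2 was at 34.8 to 37.5 against 40.5 to 43.6 CPM, with ranges apart (-0.21 ± 0.06, adjusted p = 0.051, and 0.0439 with RLE scaling), and dgt4 at 10.9 to 12.4 against 13.5 to 14.6 CPM (-0.26 ± 0.10, 0.104). msd1 (18.1 to 19.6 against 19.1 to 22.4 CPM) had overlapping ranges (-0.18 ± 0.09, adjusted p = 0.195). msd5 alone among the subunits was higher in all eye disc libraries, at 39.6, 36.0 and 36.1 against 33.7, 34.5 and 34.2 CPM (0.12 ± 0.06, adjusted p = 0.196). That sign turned with limma-trend on log2(TPM + 1), where the median of all genes was -0.18. The ratio of msd5 to dgt6 counts, picked after the values were seen, was 1.08 to 1.19 in eye disc and 0.769 to 0.803 in antennal disc. msd1 and msd5 lie tail to tail on 3L (1331744 to 1332326 and 1332307 to 1333146), and their summed counts were 56.0 against 55.4 CPM.

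Levels were compared between genes per length, as CPM per kilobase of annotated exon. In antennal disc the highest were Bub3 at 151 ± 10.3 (SD, n = 3), polo at 125 ± 4.05, Cdk1 at 121 ± 0.593, CycA at 99.6 ± 2.08 and CycB at 98.2 ± 5.88. CycA and CycB differed by less than the SD of either, and polo and Cdk1 by about the SD of polo but more than that of Cdk1. The lowest were cid at 4.85 ± 0.528, thr at 8.92 ± 0.558 and Bub1 at 10.7 ± 0.893. Within complexes the levels were uneven: the 8 augmin subunits ran from 12.8 ± 0.487 for dgt4 to 58.4 ± 1.18 for wac, and the checkpoint genes from Bub1 to Bub3. Deposited TPM, which divide by the whole gene span with its introns, ranked CycA 19 in place of 4, since its span is 6860 bases and its exons 2919.

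The 41 genes lie on all major arms, 8 on 2L, 9 on 2R, 8 on 3L, 11 on 3R and 5 on X. The expression tables list whole gene spans as gene lengths, and how reads in overlapping spans were divided between genes is not known. For 21 members the span overlaps no other gene, and 9 of these were higher in antennal disc, as were 5 of the other 20. Spc25 is the only member that lies wholly inside another span, that of grsm on the opposite strand, but no exon of it is shared. For the called genes with an overlap, counts summed with the overlapping genes gave log2 fold changes of -0.25 for mad2 with kri, -0.21 for fzy with cact, -0.32 for Klp61F with galene and -0.50 for dgt5 with CG8545, all called (highest adjusted p = 0.0264). CG8545 covers 50.4% of the dgt5 span, with no exon shared. Their sum was 172 against 244 CPM, where dgt5 alone was at 47.7 against 63.0 CPM, so it was mostly CG8545. The sums of mad2 and fzy were likewise mostly the neighbour. The sum of wac with Tudor-SN, 857 against 1110 CPM and so mostly Tudor-SN, was not called (-0.37, adjusted p = 0.0513). Sums of dgt4 with Nsun2 and Tip60 (-0.26, adjusted p = 0.00987) and of Spc25 with grsm (-0.36, 0.0135) were called, and those of ncd (0.01) and msd1 (0.02) turned sign without a call. A sum cannot separate a member from its neighbour's own difference.

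Other genes of mitosis were read from the same fit, from a list of 85 names chosen for their function, of which 83 were found as separate genes and 82 tested. The antennal disc was higher for 16 and the eye disc for 6, and 60 did not pass, with a median log2 fold change of -0.11. The 16 are 19.5% of the list, against 11.7% of all genes, and the 6 stand beside 14.6% of all genes higher in eye disc. The 16 became 4 and 3 without antennal disc replicate 2 and without replicate 3, where 5.88% and 5.13% of all genes were called in that direction. They became 10 without eye disc replicate 1 or without replicate 2 (9.65% of all genes without replicate 2). With library totals alone they became 6, where 7.78% of all genes were called, and with limma-trend on log2(TPM + 1) 0, where 3.47% were. The list thus stood below all genes in these fits, other than those without an eye disc library. The 6 became 2 or 3 without any 1 antennal disc library, 2 with library totals alone and 1 in that limma fit. Over all genes the count higher in eye disc also fell in that limma fit. The shares of all genes higher in eye disc in these fits are not given, so the fall cannot be read as particular to the list. The highest toward eye disc was stg, the Cdc25 phosphatase that activates Cdk1. It was at 366, 326 and 346 CPM in eye disc and at 73.9, 82.0 and 97.5 CPM in antennal disc (2.03 ± 0.11, adjusted p = 8.85e-05), far outside the range of the 41 genes. fzr, the Cdh1-type activator that takes over the anaphase-promoting complex after mitosis and keeps cells in G1, was at 49.8, 48.5 and 53.4 against 30.3, 28.5 and 29.5 CPM (0.78 ± 0.06, adjusted p = 0.000432). The ratio of fzr to fzy counts was 0.532 to 0.545 in eye disc and 0.220 to 0.256 in antennal disc. It is given without a test and adds nothing to the opposite calls of these genes, from which it follows. Both stg and fzr were called in all 6 fits that left out 1 library.

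**Figure D4:**
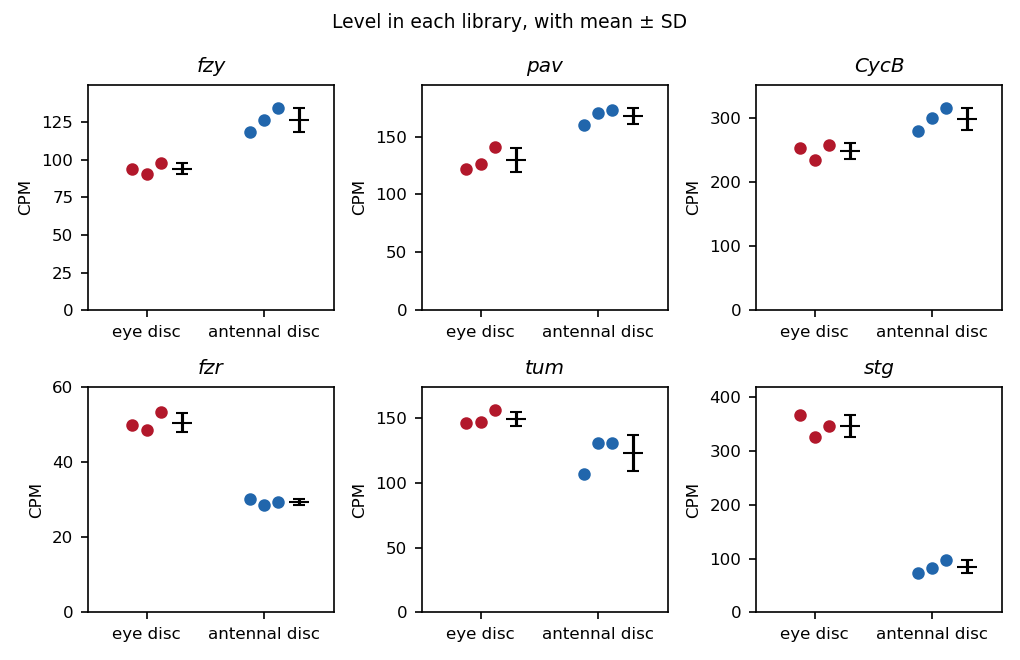
CPM (y axis, from 0) of fzy, pav, CycB, fzr, tum and stg in the 3 eye disc (red) and 3 antennal disc (blue) libraries, one point per library, with the mean and SD in black. fzy, pav and CycB are lower in eye disc, while fzr and stg are higher there, stg at 346 against 84.5 CPM on average, and tum, whose eye disc points lie above the others, was not called (adjusted p = 0.0632).

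Further genes of that list that were higher in eye disc were Plp, a pericentrin-like centrosome protein (0.49), pbl, which is needed for cytokinesis (0.36), and Septin2 (0.29). Toward antennal disc the first 5 were cmet and cana, related CENP-E type kinetochore kinesins (-0.56 and -0.48), shtd, the Apc1 subunit of the anaphase-promoting complex (-0.54), the chromokinesin-like nod (-0.48), and mud, the NuMA homologue that orients spindles (-0.42). Whether cmet and cana share reads was not checked. cmet and shtd were called in all 6 fits that left out 1 library. The other calls were lost in some: without antennal disc replicate 2 for Plp, pbl, Septin2, cana and nod (adjusted p = 0.0558 to 0.135), without antennal disc replicate 3 for Plp, Septin2, cana, nod and mud (0.052 to 0.137), without antennal disc replicate 1 for pbl and Septin2 (0.0521 and 0.119), without eye disc replicate 1 for Septin2 and nod (0.0532 and 0.0514) and without eye disc replicate 3 for pbl (0.0514). By role, 5 of 13 further kinetochore and checkpoint genes, 5 of 18 spindle and microtubule genes and 3 of 9 cytokinesis genes were higher in antennal disc. These are 38.5%, 27.8% and 33.3%, against 11.7% of all genes. So were 2 of 11 APC/C genes and 1 of 10 cell cycle kinase, phosphatase and Cks genes, but none of 7 condensin, 8 cohesin and 6 centrosome genes. Of the kinetochore and spindle calls, only those of cmet and tacc held without antennal disc replicate 3. Differences between roles were not tested.

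Genes of DNA replication, the step that precedes mitosis, lay about as far toward antennal disc. Of 38 tested, 13 were called toward the antennal disc and 2 toward the eye disc, with a median of -0.23. The 13 are 34.2% of the list, against 11.7% of all genes. Without antennal disc replicate 2 or without replicate 3 they became 1, where 5.88% and 5.13% of all genes were called in that direction. They became 5 without eye disc replicate 1 or without replicate 2 (9.65% of all genes without replicate 2). With library totals alone they became 3, where 7.78% of all genes were called, and with limma-trend on log2(TPM + 1) 0, where 3.47% were. The list thus stood below all genes without antennal disc replicate 2 or 3 and in the limma fit, and about level with library totals alone. The pair higher in eye disc are regulators and not replication enzymes: dap, the inhibitor of cyclin E and Cdk2, was at 109 ± 12.1 against 50.2 ± 5.97 CPM (1.12, adjusted p = 0.00101), and the transcription factor E2f1 at 294 ± 10.1 against 222 ± 5.31 CPM (0.41, 0.00219). On the antennal side were the origin recognition gene Orc2 (-0.48), the ligase DNAlig1 (-0.38), the ribonucleotide reductase subunit RnrL (-0.36), the catalytic subunit of polymerase delta (-0.34) and the primase subunit Prim2 (-0.34). Orc2 was not called with the replicate block (adjusted p = 0.0529). These 5 were not called without antennal disc replicate 2 (adjusted p = 0.0521 to 0.150) or replicate 3 (0.0621 to 0.158). Orc2 and the polymerase delta gene were also lost without eye disc replicate 1 (0.0887 and 0.115) or replicate 2 (0.108 and 0.119), Orc2 without eye disc replicate 3 (0.0646) and the polymerase gene without antennal disc replicate 1 (0.0578). Summed over the list, the level was 3048 to 3309 CPM in eye disc and 3326 to 3721 CPM in antennal disc, ranges that nearly touch. Whether the mitosis and replication lists differ from each other was not tested.

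**Figure D5:**
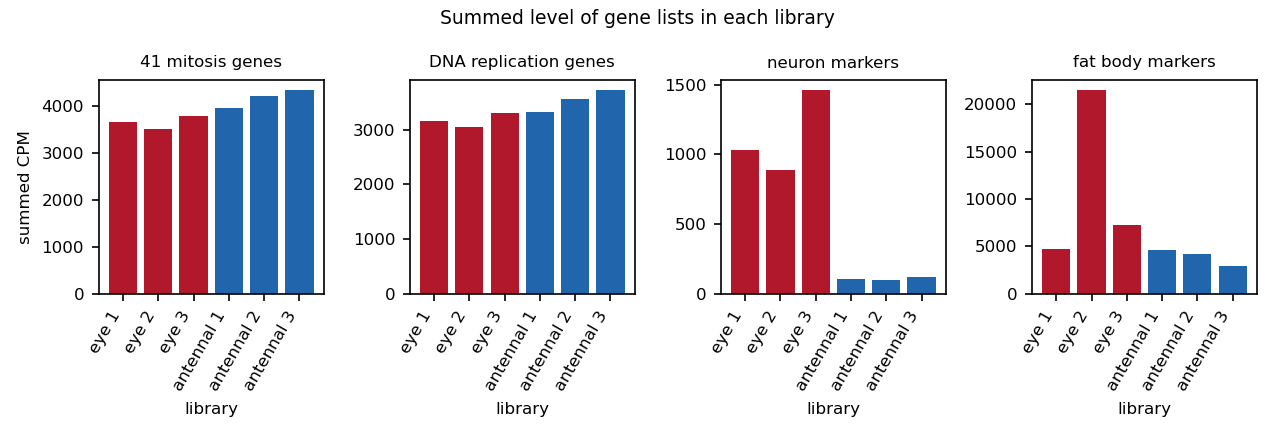
Summed CPM (y axes, from 0, each panel with its own scale) of the 41 mitosis genes, 38 DNA replication genes, 8 neuron markers and 4 fat body markers in each library, eye disc in red and antennal disc in blue. The mitosis sums rise from 3508 to 4334 CPM at most, the neuron sums are 891 to 1460 CPM in eye disc and at most 120 CPM in antennal disc, and eye disc replicate 2 stands out in the fat body panel.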

How the data were processed

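Per the file headers, the authors made one table per sample in kallisto's format, with an estimated count for each gene, not normalized, beside its TPM (a length-scaled share of the library). The deposited TPM values divide each estimated count by gene length and scale the library to a fixed total. The submitters' processing notes name FastQC, kallisto, bedtools and dm6. Software versions, the strand setting and the gene annotation behind the tables are not known. The length listed for a gene equals its whole span, introns included, for 99.3% of genes with several exons and for all 41 members, so the authors' TPM are per span. Symbols, coordinates and exon lengths came from the Ensembl annotation in dm6 coordinates. A second deposited file per sample repeats TPM for 39 regions, holds no member and was not used.

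Estimated counts were rounded. Genes passing filterByExpr were scaled by TMM and tested across all 9901 genes with the edgeR 4.0.16 quasi-likelihood test (R 4.3.3) with Benjamini-Hochberg adjustment. Each SE was taken from the fold change and its F statistic (size over root F). Alternatives used limma 3.58.1 and DESeq2 1.42.0, and figures matplotlib 3.10.9. Scripts were tested on simulated data. Groups and replicate numbers came from the titles, and the labels do not say whether replicates came from separate cultures or days, so p-values measure the spread between these samples. Samples of equal number deviated together (correlations of 0.415, 0.308 and 0.242, against -0.43 to 0.0819 for unequal numbers). With 3 libraries per disc few pairings are possible, so this check cannot establish a pairing, and the labels name none. All 41 members were named, and of the other lists the 5 called genes with the largest change each way. Levels per length were planned on the listed length and are given per exon length, once the listed length was found to be the span. Members and lists were chosen with earlier results of these data known. The listed genes zip, Orc1, RPA2, RPA3 and Nplp2 had no matching identifier and were not used here.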

Additional observations from a re-analysis of the deposited data

How the results depend on the processing

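The median of the 41 genes lay between -0.26 and -0.17 in the other settings but moved to -0.41 with limma-trend on log2(TPM + 1) and on log2(TPM + 0.1), where the median of all genes was -0.18 and -0.20, and to -0.29 with libraries centred on their median, a setting added after the data were seen. The count of members higher in antennal disc was 8 without composition scaling, 0 in both TPM fits and 6 to 14 with 1 library left out. Of the 21 members free of overlap, a subset of the main fit added later, 9 were higher in antennal disc. The count higher in eye disc was 1 with the replicate block and 1 with DESeq2, tum in both. DESeq2 called 17 toward antennal disc, but its share of all genes is not given, so this cannot be read as a stronger result. Without composition scaling and in the fits on log2(TPM + 1) and log2(TPM + 0.1), other mitosis genes higher in eye disc numbered 2, 1 and 1 (2 when centred) and in antennal disc 6, 0 and 0. For DNA replication genes these were 3, 0 and 0 in antennal disc, and 1 in eye disc in both TPM fits. Over all genes, 858 and 909 were higher in eye disc and 344 and 339 in antennal disc in the TPM fits, and 770 in antennal disc without composition scaling. With 1 library left out, other mitosis genes numbered 2 to 6 in eye disc and 3 to 17 in antennal disc, DNA replication genes 1 to 13 in antennal disc, and all genes 919 to 1462 in eye disc and 520 to 1117 in antennal disc. The cause of these moves was not tested.

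The replicate block added the calls of aurB, Incenp and tum (counts of 16 and 1) and changed no other call of the 41 genes. None of the 14 called genes changed sign in any setting. Signs of uncalled genes turned with log2(TPM + 1) and log2(TPM + 0.1) for Bub1 (-0.08 and -0.08), cnn (-0.09 and -0.10), Sas-6 (-0.12 and -0.13) and msd5 (-0.07 and -0.08), and for Sas-6 when centred (0.00). Cenp-C was at 0.00 with a minimum of 1 CPM, and summed with overlapping genes ncd was at 0.01 and msd1 at 0.02. With 1 library left out, aurA ran from -0.10 to 0.02, cid from -0.15 to 0.06 and Cenp-C from -0.06 to 0.01. cid, the lowest gene at 62 counts in 1 library, is the one for which depth limits the comparison most. With the listed span length, the rank by level moved from 4 to 19 for CycA and from 23 to 38 for dgt5, but only from 5 to 4 for CycB. The planned search for promoter motifs was not run.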
